A study of Mus musculus with 6 samples.

Results

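The circadian clock genes were examined in GC-2spd cells exposed to PM2.5. The members were 10 genes chosen by symbol, Arntl, Clock, Per1, Per2, Per3, Cry1, Cry2, Nr1d1, Nr1d2 and Dbp, and all 10 were found among the 54886 genes listed in each library. GC-2spd is an established mouse line derived from spermatocytes, with a BALB/c strain background. The control group (0 μg/mL, 3 libraries) received normal culture medium, to which the study's methods add PBS, and the PM2.5 group (3 libraries) received PM2.5 at 100 μg/mL over 48 h. The particles were a reference urban dust suspended in PBS, so the exposure was to 1 defined material, and all 6 libraries came from a single cell line. RNA abundance was given as FPKM, the fragments assigned to a gene scaled by the length of the gene and by the depth of the library. In bulk RNA, fewer cells that express a gene and less RNA per cell cannot be told apart. The study's methods describe quantitative data in general as coming from repeated experiments, but the sources used here do not say whether the 3 libraries of a group came from separate cultures. The p-values therefore measure the spread between these libraries, which may be technical.

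The clock is a transcriptional feedback loop that runs in most mammalian cells. ARNTL (also called BMAL1) and CLOCK pair through their PAS domains, bind E-boxes and drive the genes of their own repressors, the PER and CRY proteins, while the REV-ERB receptors encoded by Nr1d1 and Nr1d2 repress Arntl. DBP and its relative TEF are output factors that bind D-boxes. The aryl hydrocarbon receptor (AhR), a sensor of polycyclic aromatic hydrocarbons, belongs to the same bHLH-PAS family as ARNTL and CLOCK and pairs with ARNT, so the clock genes were compared between PM2.5 and control libraries together with AhR, its partners and its targets.

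The elements read by these factors were searched for in the promoter windows of RefSeq (GRCm38.p6, 250 bases before to 50 bases after each annotated start). The windows of 9 of the 10 members were found, and Per2 was not in the table. The stretches below are those of the 3 members that hold the most clock elements close together and of Tef, the other clock gene with the lowest p-value. All lie upstream of the start and are written 5′ to 3′ on the strand of the gene, with the matched elements in capitals. The D-box was searched as TTANNTAA, where N is any base. Its matches are TTATGTAA in Per3 and TTAGATAA in Tef, so they differ in the middle bases.
Per3, chr4:151044804-151044882, minus strand, 217 to 139 bases before the start, with the D-box TTANNTAA 2 times: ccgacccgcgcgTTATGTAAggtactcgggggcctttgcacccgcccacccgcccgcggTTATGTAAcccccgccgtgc
Cry1, chr10:85185097-85185145, minus strand, 91 to 43 bases before the start, with an E-prime box (AACGTG) and an E-box (CACGTG): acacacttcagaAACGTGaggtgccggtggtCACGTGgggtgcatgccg
Per1 at its start 1, chr11:69098771-69098829, plus strand, 178 to 120 bases before the start, with an E-box and a ROR half-site (TGACCT, the reverse complement of AGGTCA): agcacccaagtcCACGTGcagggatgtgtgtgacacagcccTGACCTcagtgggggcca
Tef at its start 1, chr15:81802487-81802563, plus strand, 186 to 110 bases before the start, with a D-box and an E-box: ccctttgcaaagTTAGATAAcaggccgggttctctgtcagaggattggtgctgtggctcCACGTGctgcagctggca
Tef at its start 2, chr15:81811264-81811293, plus strand, 150 to 121 bases before the start, with an E-box: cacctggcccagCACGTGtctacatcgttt

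Matches to the same letters, read on both strands, were common among all genes. The E-box CACGTG lay in the windows of 2 of the 9 members, Per1 and Cry1, against 8.09% of the 27025 genes with a window. The E-prime box, CACGTT or AACGTG, lay in Cry1, Cry2 and Nr1d1 and in 5.44% of genes. The D-box TTANNTAA was found in 1 member, Per3, and in 6.93% of genes, and the ROR half-site AGGTCA in Arntl, Clock, Per1 and Nr1d2 and in 18.1%. The core of the AhR element, GCGTG, was found in 8 of the 9 members, all but Arntl, and in 35.2% of genes. No match overlapped a match to another motif in these windows. A match describes the window only, and binding was not measured here.

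**Figure D1:**
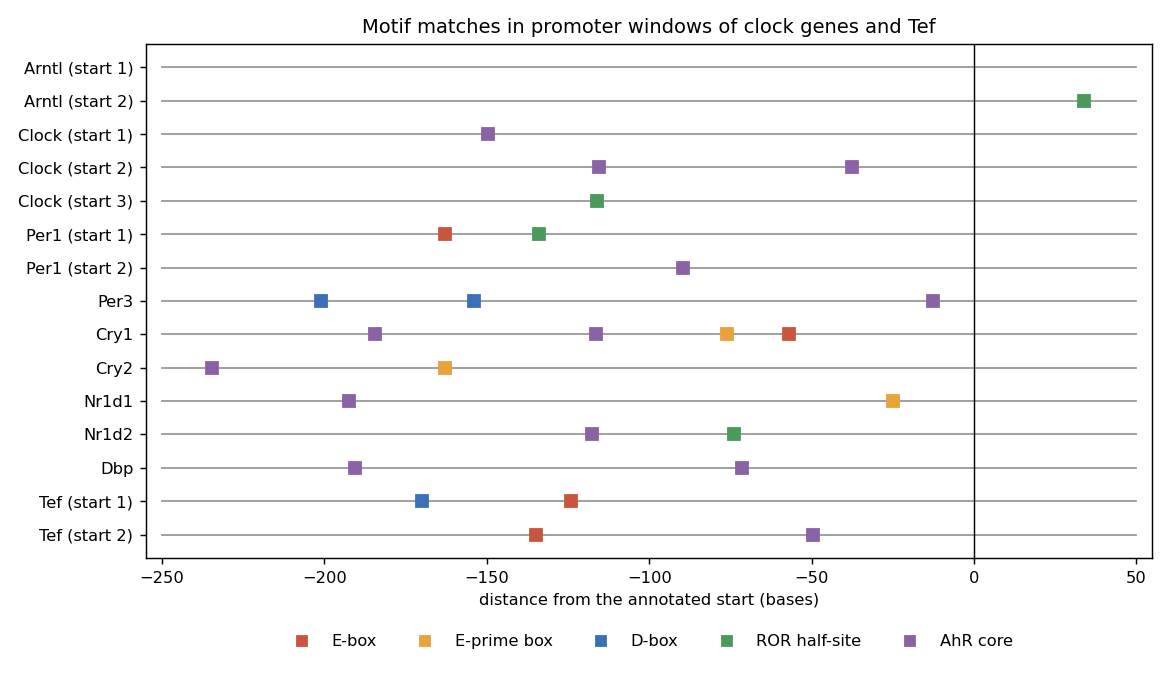
Positions of motif matches (coloured squares) in each 300-base promoter window of the 9 members in the RefSeq table and of Tef. The horizontal axis is the distance from the annotated start in bases, with upstream to the left, and genes with several starts have a line for each. The AhR core is in 8 of the 9 members, and in 35.2% of all genes with a window. The D-box is in Per3 alone among the members, and in 6.93% of those genes.

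The libraries held between 16209352 and 18003201 reads on genes, as recovered from the FPKM steps. The total by which FPKM were scaled was 12971300 in control replicate 2, below its 16209352 recovered reads. In every other library it was above the recovered reads, at 17742100 to 18558900. The FPKM of control replicate 2 are therefore higher for a given number of reads. Control replicate 2 stood apart from the others. Its Pearson r with the other control libraries across genes on the log2(FPKM + 1) scale was 0.742 and 0.745, against 0.992 between control replicates 1 and 3, and mitochondrial genes took 14.5% of its reads against 1.65% to 1.95% elsewhere. PM2.5 replicate 3 also lay farther from its group (r of 0.950 and 0.958) than PM2.5 replicates 1 and 2 from each other (0.991). Its r with control replicates 1 and 3 was 0.972 for each, above its r within its group. PM2.5 replicates 1 and 2 had r of 0.955 to 0.964 with those controls, so which PM2.5 libraries shifted cannot be told. Each comparison is therefore given with all 6 libraries and again without control replicate 2. Markers of the labelled cell type were close to absent: 0 of 12 spermatocyte markers reached a mean of 1 FPKM, Hormad1, Spo11, Dazl and Pgk2 were listed at 0 in every library, and the summed level of the list was 0.537 to 2.73 FPKM in control (0.537 to 0.576 without control replicate 2) and 0.110 to 0.678 FPKM in PM2.5 libraries. The highest sum came from Sycp3 at 2.56 FPKM in control replicate 2. Of 8 peritubular and fibroblast markers 6 passed that limit, with sums of 690 to 769 FPKM in control and 393 to 655 FPKM in PM2.5 libraries. The other lists had 1 marker above the limit each, Gata4 of 7 Sertoli cell markers (sums of 17.3 to 19.2 and 12.1 to 23.6 FPKM, Fshr and Cldn11 at 0), Star of 6 Leydig cell markers (2.01 to 2.59 and 1.74 to 1.89 FPKM, Hsd3b1 and Lhcgr at 0) and Cd68 of 5 macrophage markers (1.13 to 15.5 and 1.40 to 2.504 FPKM), with Ptprc and Adgre1 at 0 throughout. Cd68 was at 15.5 FPKM in control replicate 2 and at 0.750 to 1.80 FPKM elsewhere, and the part of these differences in the results below was not tested.

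All 10 members were detected in all 6 libraries, with 25 to 3105 reads per gene and library. Ranked by the mean of 6 libraries, Nr1d2 was highest at 12.5 ± 1.85 FPKM (SD, n = 6), followed by Clock at 9.94 ± 3.02, Cry1 at 8.10 ± 2.47, Per1 at 6.88 ± 4.23 and Nr1d1 at 6.75 ± 1.71 FPKM. The lower 5 were Arntl at 2.77 ± 0.834, Per2 at 2.41 ± 0.646, Cry2 at 2.18 ± 0.206, Per3 at 1.27 ± 0.393 and Dbp at 0.979 ± 0.345 FPKM. Nr1d2 was above Clock, Clock above Cry1, Nr1d1 above Arntl and Cry2 above Per3 in 6 of 6 libraries. The order of the other neighbours was less regular: Cry1 was above Per1, and Arntl above Per2, in 5 of 6 libraries, Per2 above Cry2 and Per3 above Dbp in 4 of 6, and Per1 above Nr1d1 in 2 of 6. Without control replicate 2 the means of 2 of these pairs changed order. Nr1d1 was at 6.15 ± 1.00 FPKM above Per1 at 5.25 ± 1.54, and Cry2 at 2.23 ± 0.188 above Per2 at 2.21 ± 0.469 FPKM (SD, n = 5). By library, Per1 was then above Nr1d1 in 1 of 5, while Per2 was still above Cry2 in 3 of 5. Genes were tested when their mean reached 1 FPKM, which 11884 genes and 9 members did. Per3 lay just inside this limit and Dbp just outside, so Dbp is given by its values alone. Per3 passed only through its control libraries, since all 3 PM2.5 libraries were under 1 FPKM, so its place among the members tested is not independent of its difference between the groups.

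None of the 9 tested members differed between PM2.5 and control at an adjusted p under 0.05. Across all genes 0.0926% passed that threshold with 6 libraries (11 of 11884), and 0.993% without control replicate 2 (118 of 11884), again with 0 members. An unadjusted p under 0.05 was found for 2 of the 9 members with 6 libraries, Per2 and Per3, both lower in PM2.5, against 3.8% of all genes in either direction and 1.88% lower. That count was 0 with total-read scaling, with the replicate number as a block and without control replicate 1, control replicate 3, PM2.5 replicate 1 or PM2.5 replicate 2. Without control replicate 2 an unadjusted p under 0.05 was found for 3 of 9, Per2, Per3 and Cry1, all lower, against 15.9% of all genes and 7.63% lower. The counts of 2 and 3 include Per3, which passed the filter only through its control libraries, so neither is independent of its difference. The median log2 fold change of the 9 members was -0.10 with 6 libraries and -0.21 without control replicate 2, beside 0.02 and -0.01 over all genes tested. Both medians of the members include Per3 and carry the same limit.

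**Figure D2:**
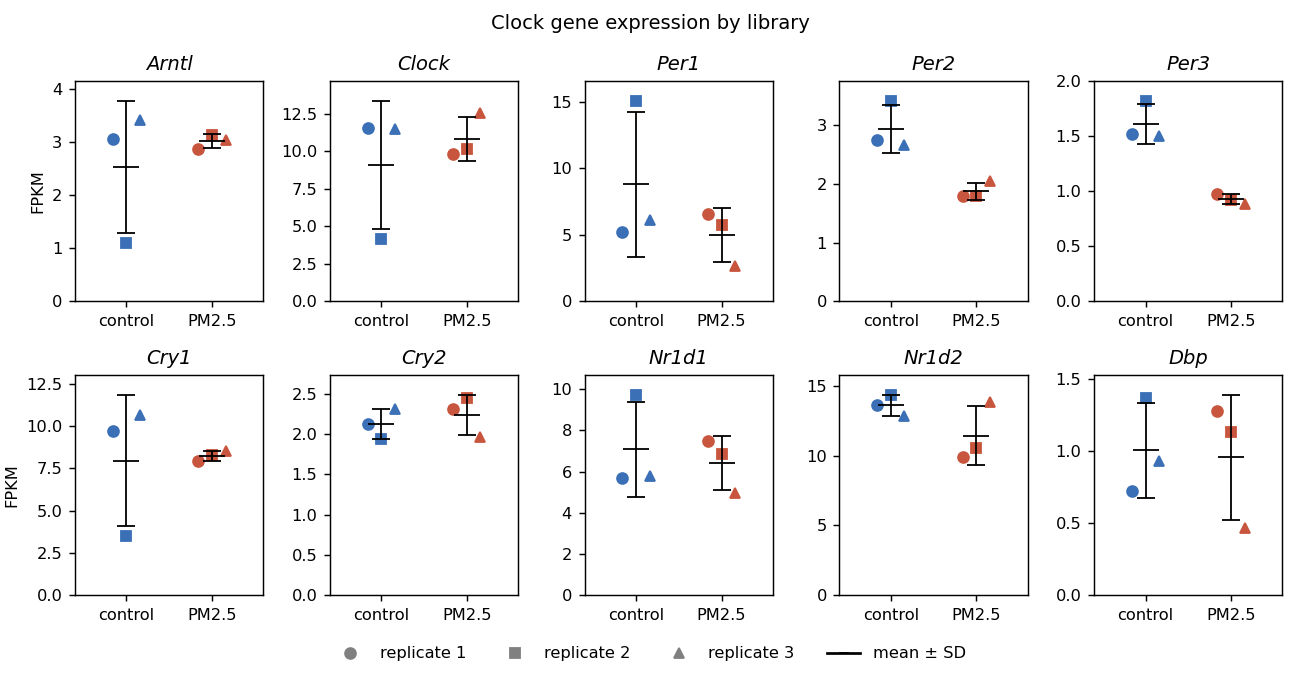
FPKM of each of the 10 members in each library. The vertical axis is FPKM on a scale of its own for each gene, symbols mark replicate 1 (circle), 2 (square) and 3 (triangle) of the control (blue) and PM2.5 (red) groups, and black bars are the mean ± SD of 3 libraries. For Per2 and Per3 all PM2.5 libraries lie under all control libraries, while the control square lies far from the other control libraries for Arntl, Clock, Cry1 and Per1.

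The activators Arntl and Clock differed between control replicate 2 and the other libraries more than between the groups. Arntl, the partner that cycles in most tissues, was at 3.05, 1.11 and 3.42 FPKM in control replicates 1, 2 and 3 and at 2.87, 3.13 and 3.04 FPKM in the PM2.5 replicates. Only control replicate 2 was low, at 0.342 of the mean of the other control libraries. The log2 fold change of Arntl on the log2(FPKM + 1) scale was 0.26 ± 0.31 (SE, limma adjusted p = 0.875) with 6 libraries and -0.08 ± 0.10 (limma adjusted p = 0.728) without control replicate 2. Clock, the histone acetyltransferase that binds E-boxes with ARNTL, was at 11.6, 4.13 and 11.5 FPKM in control and at 9.83, 10.1 and 12.5 FPKM in PM2.5 libraries. Its groups overlapped, and control replicate 2 was at 0.358 of the mean of the other control libraries. For Clock the log2 fold change was 0.34 ± 0.39 (limma adjusted p = 0.875), and without control replicate 2 it was -0.09 (95% interval -0.42 to 0.24, limma adjusted p = 0.756). Arntl shares 0.439% of its exon bases with Gm45355. Npas2, which can take the place of CLOCK, was under the limit at 0.241 to 0.753 FPKM and was not tested.

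Among the PER repressors, Per2 and Per3 were lower in every PM2.5 library than in every control library, and Per1 was not. Per2 (chr1:91415982-91459324 on GRCm38, minus strand), the PER protein needed for a stable rhythm, was at 2.75, 3.41 and 2.66 FPKM in control libraries and at 1.79, 1.79 and 2.04 FPKM in PM2.5 libraries. These values rest on 259 to 299 reads in control and 186 to 216 reads in PM2.5 libraries. Control replicate 2 had the highest FPKM of the control libraries but the fewest control reads, 259. The groups did not overlap, with means of 2.94 ± 0.409 and 1.87 ± 0.146 FPKM (SD, n = 3) and a ratio of means of 0.637. The log2 fold change of Per2 was -0.45 ± 0.17 (SE), with an unadjusted limma p of 0.0354 and an adjusted p of 0.875. Without control replicate 2 it was -0.37 ± 0.10, with a ratio of 0.692, an unadjusted limma p of 0.0126 and an adjusted p of 0.189. With 6 libraries and total-read scaling the log2 fold change of Per2 was -0.36, with an unadjusted limma p of 0.0685.

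Per3 (chr4:151003652-151044665, minus strand), a PER protein with a lesser part in keeping the rhythm, was at 1.52, 1.82 and 1.501 FPKM in control libraries and at 0.979, 0.921 and 0.887 FPKM in PM2.5 libraries. The 3 PM2.5 libraries lay close together and under all control libraries, on 154 to 168 reads against 227 to 271. The means were 1.61 ± 0.18 and 0.929 ± 0.0464 FPKM (SD, n = 3), a ratio of 0.576, and 0.615 without control replicate 2. For Per3 the log2 fold change was -0.44 ± 0.18 (SE), with an unadjusted limma p of 0.0483 and an adjusted p of 0.875. Without control replicate 2 it was -0.38 ± 0.10, with an unadjusted limma p of 0.0131 and an adjusted p of 0.191. With 6 libraries and total-read scaling it was -0.36, with an unadjusted limma p of 0.0835. Taken alone, Per2 and Per3 each gave a two-sided exact permutation p of 0.1, the smallest that 3 against 3 libraries allow, so this design cannot reach 0.05 with that test. Groups that do not overlap in the lower direction were found for these 2 of 9 members and for 6.85% of all genes tested (15.2% in both directions). As Per3 passed the filter only through its control libraries, this count is not independent of its difference.

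Per1 (chr11:69095217-69109960, plus strand), the PER gene that also responds quickly to outside signals, had the largest absolute log2 fold change of the members with 6 libraries, and the widest spread. It was at 5.21, 15.0 and 6.14 FPKM in control libraries and at 6.55, 5.71 and 2.65 FPKM in PM2.5 libraries. The groups overlapped, and the extremes were control replicate 2 and PM2.5 replicate 3. Control replicate 2 was at 2.65 times the mean of the other control libraries. PM2.5 replicate 3 was at 0.433 of the mean of the other PM2.5 libraries. In limma Per1 had a log2 fold change of -0.65 ± 0.46 (limma adjusted p = 0.875), and -0.22 (95% interval -1.09 to 0.64, limma adjusted p = 0.776) without control replicate 2. The genes most like Per1 over the 6 libraries, by Pearson r of log2(FPKM + 1), were Rara (0.999), Sema4b (0.998) and Coro2b (0.998), and 1072 genes had an r above 0.9 with Per1. These r values rest on 6 libraries in 2 groups that include control replicate 2.

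Of the cryptochromes, Cry1 depended on control replicate 2 and Cry2 was nearly level. Cry1 (chr10:85131700-85185064, minus strand), the strong repressor that closes the loop late in the cycle, was at 9.73, 3.51 and 10.7 FPKM in control libraries and at 7.93, 8.27 and 8.52 FPKM in PM2.5 libraries. Control replicate 2 was the lowest of all 6, at 0.344 of the mean of the other control libraries, and both of those lay above every PM2.5 library. With 6 libraries the log2 fold change of Cry1 was 0.16 ± 0.39 (limma adjusted p = 0.909). Without control replicate 2 the direction turned, to -0.28 ± 0.09, with a ratio of means of 0.808, an unadjusted limma p of 0.0291 and an adjusted p of 0.26. Cry1 then joined Per2 and Per3 as the 3 of 9 members without overlap in the lower direction, against 19.6% of all genes tested (37.3% in both directions). Per3 was among these 3 with the limit given above, having passed the filter only through its control libraries. Cry2, which encodes the other cryptochrome, was at 2.12, 1.94 and 2.31 FPKM in control and at 2.31, 2.44 and 1.96 FPKM in PM2.5 libraries. The 2 groups overlapped and the log2 fold change of Cry2 was 0.05 ± 0.17 (limma adjusted p = 0.929), or 0.01 (95% interval -0.28 to 0.29, limma adjusted p = 0.979) without control replicate 2. Cry2 shares 4.67% of its exon bases with D930015M05Rik.

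The REV-ERB genes overlapped between the groups. Nr1d1, which encodes REV-ERBα, was at 5.69, 9.72 and 5.80 FPKM in control libraries and at 7.48, 6.83 and 4.95 FPKM in PM2.5 libraries. Control replicate 2 was the highest and PM2.5 replicate 3 the lowest, as for Per1. The log2 fold change of Nr1d1 was -0.10 ± 0.27 (limma adjusted p = 0.916) with 6 libraries and 0.12 (95% interval -0.33 to 0.57, limma adjusted p = 0.766) without control replicate 2. Nr1d1 overlaps Thra, the thyroid hormone receptor α gene, tail to tail on the other strand over 8.55% of its exon bases, and as strand-specific counting is not given in the sources used here, reads from this stretch cannot be assigned to either gene with certainty. Nr1d2, which encodes REV-ERBβ, was at 13.6, 14.3 and 12.8 FPKM in control libraries and at 9.89, 10.6 and 13.9 FPKM in PM2.5 libraries. PM2.5 replicates 1 and 2 were under every control library, and PM2.5 replicate 3 was within the control range. For Nr1d2 the value was -0.24 ± 0.20 (limma adjusted p = 0.875), and -0.21 ± 0.16 (limma adjusted p = 0.574) without control replicate 2. Of its 31-base sequences, 9.51% occur in the gene model ENSMUSG00000117785, with which reads could be shared.

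Dbp, the output factor most used as a readout of the clock, was at 0.720, 1.37 and 0.926 FPKM in control libraries and at 1.27, 1.13 and 0.462 FPKM in PM2.5 libraries. This is the lowest expressed member, with 25 to 68 reads per library. Control replicate 2 was the highest and PM2.5 replicate 3 the lowest, and the mean difference on the log2(FPKM + 1) scale was -0.05 with 6 libraries and 0.08 without control replicate 2, with no test. Dbp shares 18.0% of its exon bases with Sphk2.

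**Figure D3:**
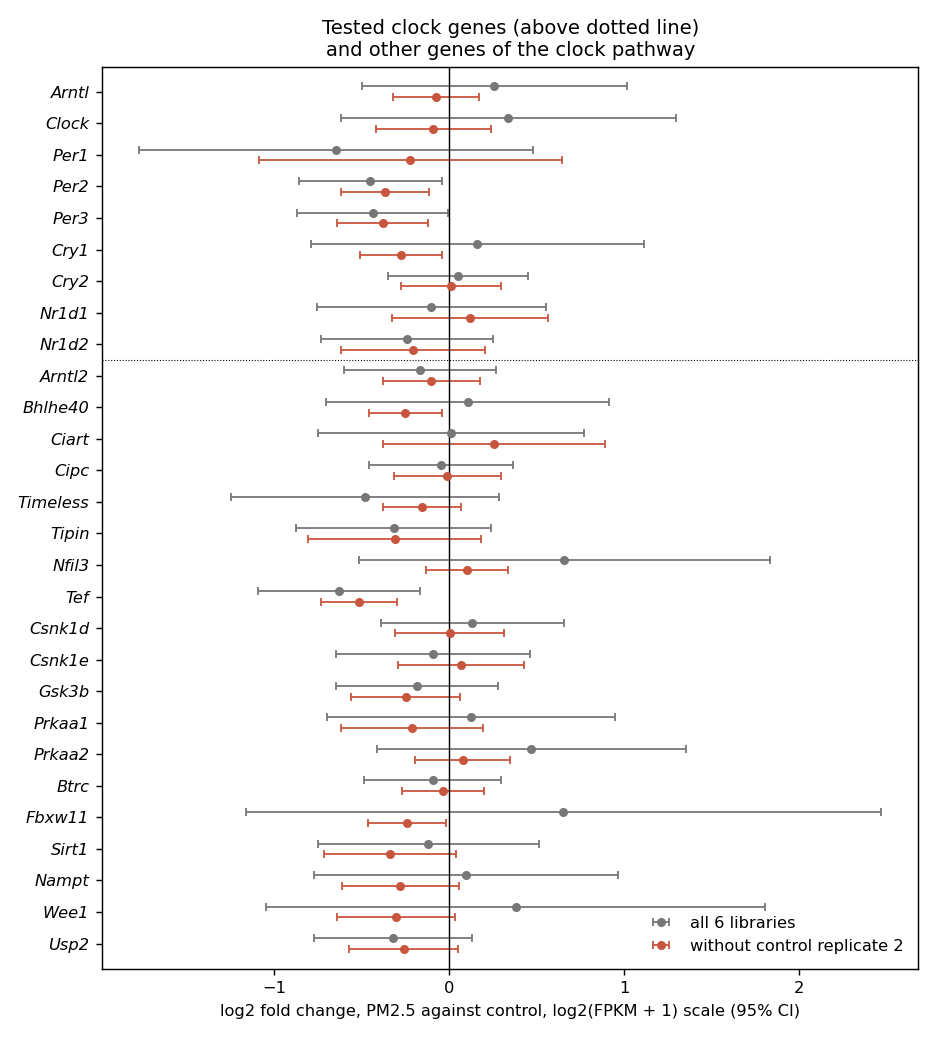
Log2 fold change of PM2.5 against control on the log2(FPKM + 1) scale for the 9 tested members (above the dotted line) and the tested other clock genes reported here (below it), with 95% intervals from limma, for all 6 libraries (grey) and without control replicate 2 (red). The intervals of Per2 and Per3 lie under 0 in both fits, that of Cry1 only without control replicate 2, and Tef has the lowest value among genes whose interval lies under 0.

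Of 27 other genes of the clock pathway, 20 were tested and 0 passed the adjusted threshold in either comparison. Tef (chr15:81802421-81826863, plus strand), which encodes a D-box factor closely related to DBP, had the lowest unadjusted p of the list. It was at 18.5, 23.3 and 17.9 FPKM in control libraries and at 12.5, 12.8 and 12.01 FPKM in PM2.5 libraries, on 1707 to 2706 reads. All PM2.5 libraries lay under all control libraries, and the ratio of means was 0.625, or 0.683 without control replicate 2. Tef had a log2 fold change of -0.63 ± 0.19 (SE), with an unadjusted limma p of 0.0158 and an adjusted p of 0.875. Without control replicate 2 this was -0.52 ± 0.08, with an unadjusted limma p of 0.00158 and an adjusted p of 0.083. With 6 libraries and total-read scaling it was -0.50, with an unadjusted limma p of 0.0339. With 6 libraries Tef was the 1 gene of 20 at an unadjusted p under 0.05, against 3.8% of all genes. In 3 of 20 the groups did not overlap, all lower (Tef, Timeless and Usp2, the last pair named after their values were seen), against 15.2% of all genes and 6.85% lower. With control replicate 2 left out the numbers were 3 and 10 of 20, all lower. The share of all genes was then 15.9% at an unadjusted p under 0.05 (7.63% lower) and 37.3% without overlap (19.6% lower). The first count, 15% of the list, was near the 15.9% of all genes and is not read as a result about the list. The median of the list was -0.23, against -0.02 with 6 libraries, beside -0.01 and 0.02 over all genes tested.

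Sirt1, a deacetylase that acts on the PER2 protein, was another of this list with a large difference once control replicate 2 was left out. It was at 10.8, 6.39 and 10.6 FPKM in control and at 7.41, 7.52 and 9.96 FPKM in PM2.5 libraries. Control replicate 2 was the lowest library, and PM2.5 replicate 3 lay nearer to control replicates 1 and 3 than the other PM2.5 libraries did. The log2 fold changes of Sirt1 were -0.12 ± 0.26 (limma adjusted p = 0.903) with 6 libraries and -0.34 ± 0.15 (limma adjusted p = 0.359) without control replicate 2.

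The AhR targets showed the exposure in all PM2.5 libraries. Cyp1a1, the cytochrome P450 induced by AhR, had 2, 0 and 0 reads in control libraries and 306, 302 and 400 reads in PM2.5 libraries, or 6.15, 6.11 and 7.94 FPKM. It rose by 2.92 ± 0.18 on the log2(FPKM + 1) scale, a value that depends on the pseudocount (limma adjusted p = 0.0301, and 0.00757 without control replicate 2). Cyp1a1 passed the filter only through its PM2.5 libraries, so its place among the genes tested is not independent of its difference. Cyp1b1, another P450 of the AhR set, was at 29.0, 9.41 and 27.5 FPKM in control and at 78.8, 78.5 and 88.8 FPKM in PM2.5 libraries, a log2 fold change of 1.998 ± 0.44 (limma adjusted p = 0.538) that passed the threshold without control replicate 2 (1.501 ± 0.10, limma adjusted p = 0.0103). Tiparp, the AhR-induced repressor of AhR, was at 16.7, 7.25 and 15.4 FPKM against 31.6, 33.1 and 43.7 FPKM and passed in neither comparison (limma adjusted p = 0.616 and 0.0698), although its groups did not overlap.

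None of the tested PAS-domain genes outside the clock passed the adjusted threshold, with 7 of 15 tested and 0 called in both comparisons. Ahrr, a gene of this list named after its values were seen, was under the limit of 1 FPKM and was not tested. It had 4, 2 and 3 reads in control and 26, 24 and 24 reads in PM2.5 libraries. Its PM2.5 libraries all lay above its control libraries. At an unadjusted limma p under 0.05 there were 0 of 7 with 6 libraries, against 3.8% of all genes. Without control replicate 2 there was 1 of 7, Arnt, lower, against 15.9% of all genes and 7.63% lower. Groups did not overlap for 0 of 7 with 6 libraries and for 2 of 7, Arnt and Hif1a, without that library. Both were lower, against 37.3% of all genes and 19.6% lower. Ahr was at 3.30, 1.21 and 3.36 FPKM in control and at 2.86, 2.84 and 3.32 FPKM in PM2.5 libraries, and its log2 fold change was 0.21 ± 0.30 (limma adjusted p = 0.876), or -0.11 ± 0.10 (limma adjusted p = 0.615) without control replicate 2. Arnt, the partner of AhR and HIF1A, was at 23.6, 8.95 and 23.3 FPKM in control and at 19.97, 19.8 and 18.7 FPKM in PM2.5 libraries. The pattern of Arnt was that of Cry1: control replicate 2 was lowest, and the log2 fold change went from 0.17 ± 0.39 (limma adjusted p = 0.906) to -0.26 ± 0.09 (limma adjusted p = 0.26) without that library, where its unadjusted limma p was 0.0282. Hif1a, the hypoxia factor that pairs with ARNT, was at 80.0, 15.95 and 77.3 FPKM in control and at 51.7, 56.3 and 75.1 FPKM in PM2.5 libraries, with log2 fold changes of 0.36 ± 0.64 and -0.38 ± 0.18 (limma adjusted p = 0.886 and 0.387). Arnt2, a relative of ARNT found mainly in brain and kidney, was at 1.12, 0.792 and 1.02 FPKM against 1.30, 1.08 and 1.43 FPKM, a log2 fold change of 0.20 ± 0.19 (limma adjusted p = 0.875), and 0.13 ± 0.12 (limma adjusted p = 0.624) without control replicate 2.

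In PM2.5 replicate 3 the deviations of the members went with the base composition of their transcripts. Across 11735 genes, Spearman's rho between the GC content of the longest transcript and the deviation of PM2.5 replicate 3 from the other PM2.5 libraries was -0.714. For control replicate 2 against the other control libraries it was 0.339, beside -0.327 with the length of the longest transcript. All are descriptions over genes that share libraries, and a deviation between PM2.5 libraries does not say which of them shifted. In control replicate 2 members of like GC content went different ways, with Nr1d2 at 0.11 and Clock at -1.29, and Per3 at 0.17 and Cry1 at -1.31. The members range from 40.9% GC in Clock and 41.8% in Nr1d2 to 56.8% in Nr1d1, 59.4% in Per1 and 61.6% in Dbp. In PM2.5 replicate 3 the GC-rich Per1, Nr1d1 and Dbp were lower than in the other PM2.5 libraries, by -0.96, -0.45 and -0.59 on the log2(FPKM + 1) scale, and the GC-poor Nr1d2 and Clock were higher, by 0.41 and 0.30. After a correction of each library for the GC content and length of the longest transcript the deviation was -0.34 for Per1, -0.06 for Nr1d1, 0.07 for Nr1d2 and 0.01 for Clock. For the other tested members it grew or turned, from 0.12 to 0.40 for Per2 (54.3% GC), from 0.07 to 0.11 for Cry1, from 0.01 to -0.10 for Arntl, from -0.05 to 0.10 for Per3 and from -0.19 to 0.14 for Cry2.

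With that correction and without control replicate 2, 6.83% of 11735 genes were called, and still 0 of the 9 members. The log2 fold changes were -0.36 for Per3 (limma adjusted p = 0.0918), -0.31 for Cry1 (limma adjusted p = 0.0725) and -0.37 for Per2 (limma adjusted p = 0.194). At an unadjusted p under 0.05 there were 2 of 9 members, Per3 and Cry1, both lower, against 26.6% of all genes and 13.2% lower. Of these, Per3 had passed the filter only through its control libraries. Tef was then the 1 other clock gene called, with a log2 fold change of -0.53 ± 0.06 (limma adjusted p = 0.0166). The correction was chosen after the data were seen, and with all 6 libraries it gave 0 called members and 0 called other clock genes.

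**Figure D4:**
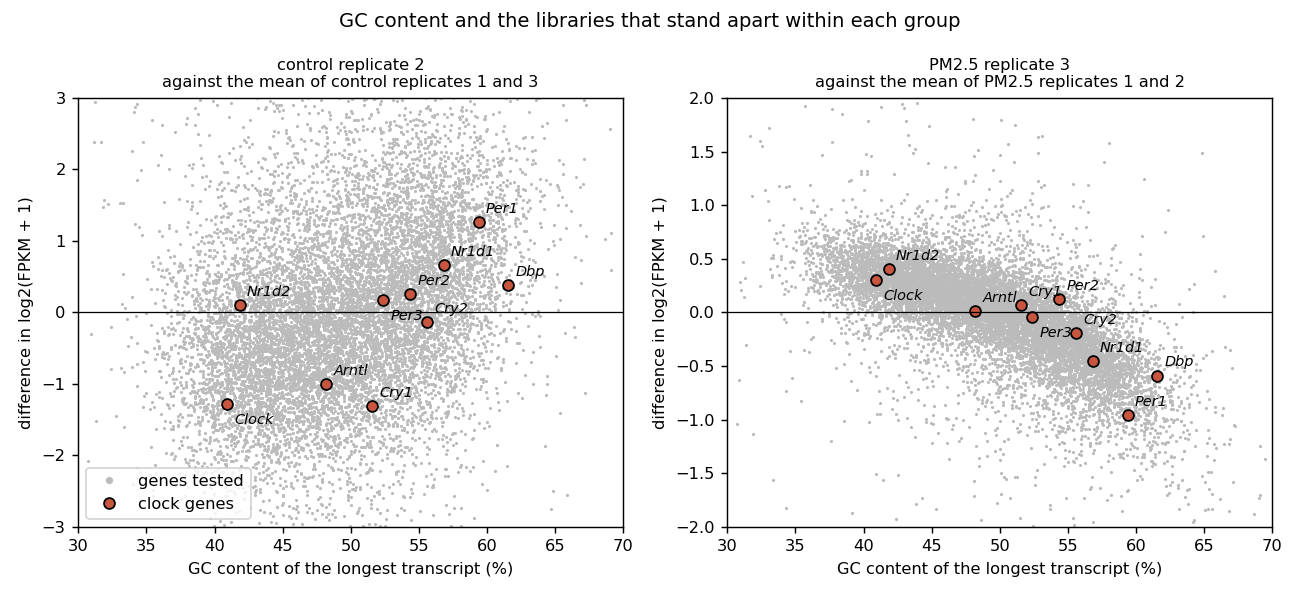
Difference in log2(FPKM + 1) of control replicate 2 from the mean of control replicates 1 and 3 (left) and of PM2.5 replicate 3 from the mean of PM2.5 replicates 1 and 2 (right), against the GC content (%) of each gene's longest transcript. Grey points are the genes tested (294 and 55 of 11735 lie outside the axes), red points are the 10 members. On the right the cloud slopes down (rho of -0.714), with Per1 at -0.96 and Nr1d2 at 0.41. On the left Per1 lies at 1.27 and Clock, Cry1 and Arntl lie at or below -1.01.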

How the data were processed

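RNA was sequenced from GC-2spd cells in 6 libraries, 3 control and 3 PM2.5, with groups and replicate numbers taken from the sample labels. The authors prepared libraries with a NEBNext Ultra kit, sequenced paired reads of 150 bases on an Illumina Novaseq, mapped them with HISAT2 (2.0.5) and counted them with featureCounts (1.5.0-p3), tools and versions that the submitters' processing notes list beside the build mm9. The authors deposited FPKM for each library, and their own differential expression used DESeq2. Symbols, exon lengths and positions were taken here from GENCODE M21 on GRCm38, with lengths found for 54495 of 54886 genes, and no coordinate was converted between builds.

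Each FPKM times exon length was divided by the step between low values, which gave whole reads in all 6 libraries for 98.6% of the 25249 expressed genes (tolerance 0.05 reads, values above 200 reads not judged). Depth was read from these reads and the tests were made on FPKM. The main test was limma 3.58.1 with trend and robust options (R 4.3.3, statmod 1.5.0) applied to log2(FPKM + 1) of those 11884 genes whose mean reached 1 FPKM. Benjamini-Hochberg adjustment ran over all genes tested, and a gene was called at an adjusted p under 0.05. Fold changes on this scale understate those of low genes.

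The members and gene lists were chosen with earlier results of these data known. All members were named. Of the other lists a gene was named when its adjusted p was under 0.05 in the fit of 6 libraries or without control replicate 2, or when it had 1 of the 3 largest absolute log2 fold changes of its list without control replicate 2, and Ahr, Arnt, Cyp1a1, Cyp1b1 and Tiparp in any case. For the member with the largest change the 3 genes with the highest Pearson r were named. Genes that overlap a member were named with it. Timeless, Usp2 and Ahrr were named after their values were seen. A gene of these lists is counted but not reported here.

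Alternatives were pseudocount 0.1, no filter, a filter of 5 FPKM, scaling to total reads, voom on recovered reads, limma without trend and robust options, a log2 fold threshold of 1, a replicate block and leaving out each library. The voom fit took the scaling totals of the FPKM as library sizes, so it kept the FPKM scaling of control replicate 2. Corrections for the GC content and length of the longest transcript (a spline per library) were chosen after seeing the data. The fits were tested on simulated data with 200 changed genes. Figures were drawn with matplotlib 3.10.9 (Python 3.11.15, numpy 2.4.6, pandas 2.3.3).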

Additional observations from a re-analysis of the deposited data

How the results depend on the processing

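The number of clock genes called was 0 under every alternative run, and 0 to 3 of them had an unadjusted p under 0.05 in limma. That count, 2 with 6 libraries, was 0 with a filter of 5 FPKM (which removes Per2 and Per3), total-read scaling, the block, the block with the GC and length correction, and when any library but control replicate 2 or PM2.5 replicate 3 was left out, 1 with pseudocount 0.1 and without PM2.5 replicate 3, and 2 or 3 in the others. Per2 and Per3 were lower in PM2.5 in all 17 alternatives that gave them a value, with log2 fold changes of -0.64 to -0.36 and -0.78 to -0.36 and adjusted p-values of 0.162 to 0.988 and 0.0918 to 0.988. The alternatives reuse the same libraries, so they are not independent of each other. Per3 passed the filter of 1 FPKM only through its control libraries. Per1, Nr1d2 and Tef were lower in all 18 of theirs, Tef with adjusted p-values of 0.0166 to 0.988. Over all genes the 11 calls became 0 with no filter, with a filter of 5 FPKM and with voom, and 6 with total-read scaling, which moved the median log2 fold change of all genes from 0.02 to 0.13. Leaving out 1 library gave 0 to 118 calls: 118 without control replicate 2 and 0 without any 1 of the other 5. Without control replicate 2 there were 113 calls with pseudocount 0.1, 147 with voom and 801 with the GC and length correction, which gave 1 called gene among the other clock genes (Tef) and 17 calls over all genes with 6 libraries. With the replicate block there were 0 calls, and 0 again with the block and the GC and length correction, and 335 and 447 genes had an unadjusted p under 0.05. The deviations of libraries with the same number had r of -0.28, 0.18 and 0.25, so the numbers were not taken to pair the samples, and the block changed no call at an adjusted p under 0.05 of a clock gene. It raised the unadjusted limma p from 0.0354 to 0.128 for Per2, from 0.0483 to 0.167 for Per3 and from 0.0158 to 0.0642 for Tef. The cause of these differences was not tested.

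Direction turned mainly without control replicate 2, given here plain, with pseudocount 0.1, with voom and with the GC and length correction. The values were -0.077, -0.10, -0.10 and -0.054 for Arntl, -0.28, -0.30, -0.31 and -0.31 for Cry1, 0.12, 0.14, 0.14 and 0.023 for Nr1d1, and -0.092, -0.10 and -0.10 for Clock, which stayed positive with the correction. They were -0.38, -0.38, -0.38 and -0.22 for Hif1a, -0.26, -0.27, -0.27 and -0.22 for Arnt, and -0.11, -0.15, -0.15 and -0.028 for Ahr. Cry2 turned to -0.043, with the correction only. Nr1d1 was also at 0.018 with total-read scaling and at 0.05 without PM2.5 replicate 3. Leaving out 1 of the other libraries gave values up to 0.46 for Arntl, 0.55 for Clock, 0.41 for Cry1, 0.75 for Hif1a, 0.40 for Arnt and 0.37 for Ahr. Cyp1a1 was higher in all 17 of its alternatives, with adjusted p-values of 0.0018 to 0.509. It had passed the filter of 1 FPKM only through its PM2.5 libraries.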
